A study of Rattus norvegicus with 5 samples.

Results

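The small leucine-rich proteoglycans are secreted matrix proteins with a core of leucine-rich repeats, and 10 of their genes (Kera, Lum, Dcn, Bgn, Fmod, Prelp, Ogn, Omd, Epyc and Optc) were followed here, named by symbol. Of these 10, 8 were read from the gene table of 20339 genes. Ogn was taken from its 1 named isoform row, and Omd was not analysed here. All 9 genes with a value passed the filter on low counts. The libraries were whole corneas of male Sprague-Dawley rats aged 6 months: 2 from transgenic P1 hMR rats, which carry and overexpress the human mineralocorticoid receptor gene NR3C2, and 3 from wild-type rats. The promoter and the cells that drive the transgene, the number of founder lines and any pooling of rats are not given in the sources used here, and p-values measure only the spread between these libraries. The question is whether an excess of this steroid receptor goes with a different output of the proteoglycans that coat corneal collagen.

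In the cornea, keratocytes lay down thin, evenly spaced collagen fibrils, and small leucine-rich proteoglycans sit on the fibrils and limit how they thicken and fuse. Keratocan and lumican carry keratan sulfate chains there, while decorin and biglycan carry chondroitin or dermatan sulfate chains. The family is commonly split into class I (decorin, biglycan and asporin), class II (fibromodulin, lumican, keratocan, Prelp and osteomodulin) and class III (epiphycan, opticin and osteoglycin). Several of the genes lie side by side: in the RefSeq gene order of rat assembly GRCr8, Dcn, Lum, Kera and Epyc follow each other without another protein-coding gene between them, and so do Optc, Prelp and Fmod, as well as Ogn and Omd.

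The promoters of Kera, Lum and Fmod are shown because Kera and Lum are neighbours whose levels did not follow each other across the corneas, and Fmod belongs to a trio with Bgn and Prelp that did. Each stretch runs from 250 bases before to 50 bases after the RefSeq start and is written in the direction of the gene. The Kera stretch is chr7:34283850-34284149, the Lum stretch chr7:34245456-34245755 and the Fmod stretch chr13:48045317-48045616, all on the plus strand of GRCr8. Capitals mark motifs searched on both strands: a steroid receptor hexamer, the CCAAT box, the TATA box and the GC box, whose letters are given with their counts after the sequences.
Kera: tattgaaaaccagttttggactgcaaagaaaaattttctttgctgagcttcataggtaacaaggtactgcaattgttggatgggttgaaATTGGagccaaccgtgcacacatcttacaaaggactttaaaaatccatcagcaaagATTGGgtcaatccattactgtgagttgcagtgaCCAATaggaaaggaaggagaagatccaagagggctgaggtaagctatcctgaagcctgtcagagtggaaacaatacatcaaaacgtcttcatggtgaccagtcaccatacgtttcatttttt
Lum: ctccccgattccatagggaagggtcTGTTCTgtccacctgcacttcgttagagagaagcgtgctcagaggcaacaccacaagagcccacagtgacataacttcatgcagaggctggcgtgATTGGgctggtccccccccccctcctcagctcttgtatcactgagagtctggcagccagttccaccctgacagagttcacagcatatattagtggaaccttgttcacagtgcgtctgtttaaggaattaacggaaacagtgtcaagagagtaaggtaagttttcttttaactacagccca
Fmod: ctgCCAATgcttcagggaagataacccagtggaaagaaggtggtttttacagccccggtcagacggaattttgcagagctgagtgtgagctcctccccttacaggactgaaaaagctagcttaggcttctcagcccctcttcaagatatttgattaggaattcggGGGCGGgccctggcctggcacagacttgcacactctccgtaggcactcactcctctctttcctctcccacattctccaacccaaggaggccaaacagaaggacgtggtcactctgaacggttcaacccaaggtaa
The steroid receptor hexamer TGTTCT, which the mineralocorticoid and glucocorticoid receptors can bind, was matched in the stretch of Lum and in none of the other 5 member promoters in the table (Kera, Fmod, Ogn, Omd and Epyc). It was present in 20.7% of all 33469 promoters of the same length. Kera held 3 CCAAT boxes (those letters alone), and Lum and Fmod 1 each, against 37.5% of all promoters with at least 1. The promoter of Fmod held 1 GC box, GGGCGG, as did 33.1% of all promoters. The TATA box, searched as TATAAA, was found among the 6 members in Ogn alone, with the first base at position -222 from the start and overlapping a match on the other strand (14.2% of all promoters). These matches describe letters only.

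The libraries held 20874010 to 30449675 estimated counts in the gene table. Human NR3C2 gave 1094 and 1146 counts in transgenic corneas 1 and 2 and 0 in each of the 3 wild-type corneas, and it was the 1 gene of 13305 that passed the edgeR quasi-likelihood test (adjusted p = 1.10e-05). Rat Nr3c2 had 5.55 and 4.93 CPM (counts scaled for library size by TMM) in transgenic corneas and 4.08, 2.89 and 4.19 CPM in wild-type corneas (adjusted p = 0.820). Corneal epithelial markers fixed for the tissue check summed to 118714 and 93959 CPM in transgenic corneas 1 and 2 and 101612 to 115035 CPM in wild-type corneas.

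Taken as a sum, the small leucine-rich proteoglycans took a larger part of the counts in both transgenic corneas than in any wild-type cornea. The 9 genes summed to 2053 and 2061 CPM in transgenic corneas 1 and 2, against 1691, 1668 and 1681 CPM in wild-type corneas 1 to 3. The groups did not overlap, and each was tight: 2057 ± 5.48 CPM (SD, n = 2) against 1680 ± 11.6 CPM (SD, n = 3), a log2 difference of 0.29. Most of the difference in means lay in Bgn (472 against 325 CPM) and Fmod (468 against 326 CPM). Means of Dcn (598 against 568 CPM) and Lum (238 against 239 CPM) were closer. The tight transgenic sum held opposite moves: from transgenic cornea 1 to 2, Lum fell from 287 to 189 CPM, while Bgn rose from 441 to 503 CPM and Fmod from 438 to 498 CPM. As a share of all gene-table counts, the family made up 0.203% and 0.213% in transgenic corneas and 0.169%, 0.163% and 0.168% in wild-type corneas. With 2 against 3 libraries the exact two-sided permutation test over samples cannot go below p = 0.2, and it gave p = 0.2 for both measures, so neither could pass 0.05. In whole tissue, more cells of a type and more RNA per cell cannot be told apart.

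None of the 9 genes passed the edgeR test over all 13305 genes, where 0.00752% of genes were called in either direction. At an unadjusted p under 0.05, Bgn, Fmod, Prelp and Kera were higher in transgenic corneas and 0 members were lower, or 4 of 9, against 4.39% of all genes higher, 1.93% lower and 6.32% in either direction. In the same 4 genes the lower transgenic value exceeded the highest wild-type value, which was so for 12% of all genes tested. Of the 9 genes, 7 had a log2 fold change above 0, against 48.2% of all genes. The median log2 fold change of the 9 was 0.34, against -0.01 over all genes tested. It was 0.59 without wild-type cornea 1, 0.52 without transgenic cornea 1 and 0.28 without transgenic cornea 2. Without wild-type cornea 2 or wild-type cornea 3 it stayed at 0.34. DESeq2 called Bgn and Fmod higher (adjusted p = 0.00505 and 0.0130), where it called 0.256% of all genes higher and 0.135% lower, and limma voom called 0 of the 9.

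**Figure D1:**
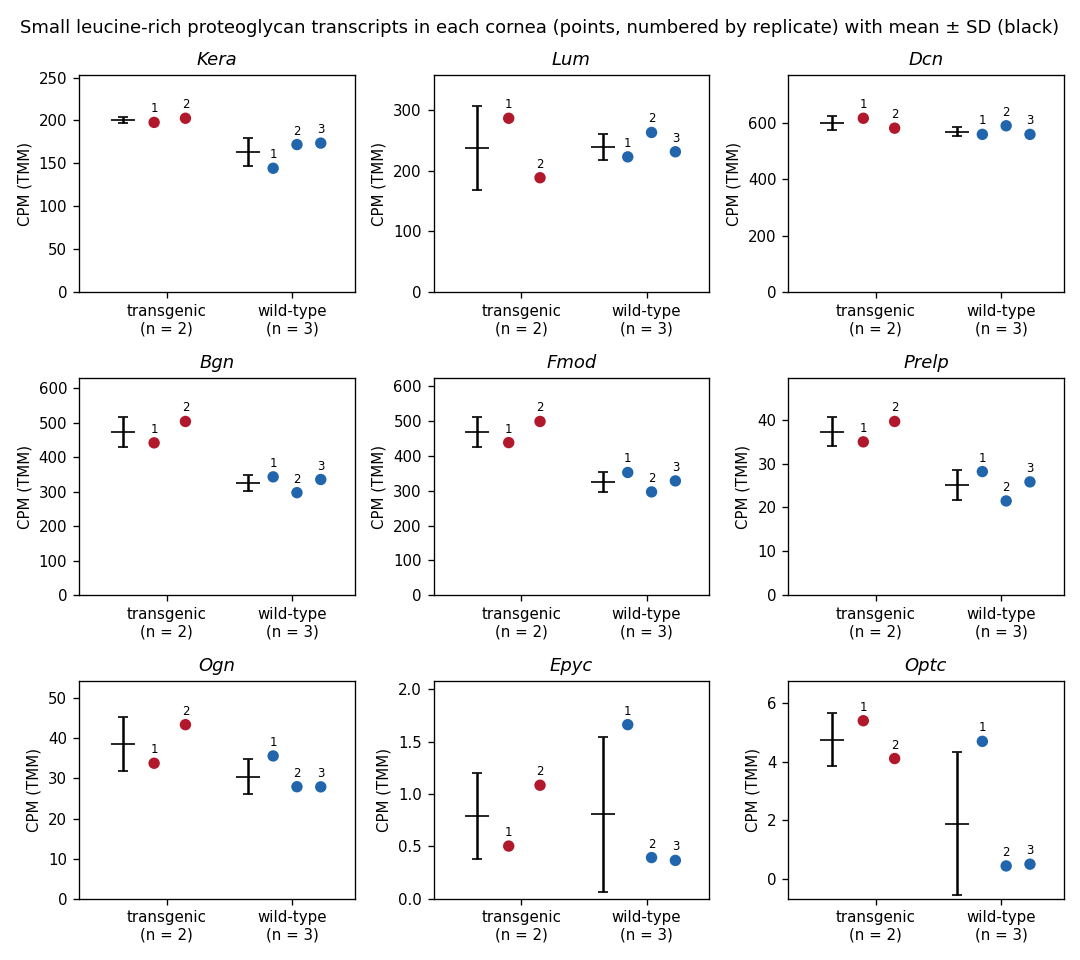
Level of each small leucine-rich proteoglycan gene in each cornea, in CPM after TMM scaling on the y axis, with transgenic corneas (red, n = 2) left of wild-type corneas (blue, n = 3). Black bars give the mean ± SD. Bgn, Fmod, Prelp and Kera have both red points above every blue point, and the wild-type spread of Optc and Epyc comes from replicate 1.

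Among the class I genes, biglycan and decorin behaved differently. Bgn, whose product carries chondroitin or dermatan sulfate and also binds growth factors and Toll-like receptors, had 441 and 503 CPM in transgenic corneas 1 and 2, against 343, 297 and 335 CPM in wild-type corneas 1 to 3. Both transgenic values lay well above the wild-type range, with means of 472 ± 43.8 CPM (SD, n = 2) and 325 ± 24.5 CPM (SD, n = 3). The log2 fold change was 0.54 ± 0.11 (SE), with an unadjusted p of 6.41e-04 by edgeR and an adjusted p of 0.404. Dcn, the gene of decorin, which decorates collagen fibrils in most connective tissues, had 615 and 580 CPM in transgenic corneas and 558, 589 and 558 CPM in wild-type corneas. Its groups overlapped, and the log2 fold change of 0.07 ± 0.10 lay within its error (edgeR adjusted p = 0.918).

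The ratio of Bgn to Dcn counts within each library, which needs no scaling between libraries, was 0.717 and 0.867 in transgenic corneas and 0.614, 0.505 and 0.601 in wild-type corneas. The ratio was higher in both transgenic corneas than in any wild-type one (exact permutation p = 0.2, the smallest that 2 against 3 allows; 0.640 after Benjamini-Hochberg adjustment over the 8 ratios compared). Counts rise with transcript length, so a ratio between genes is compared only from library to library. The asporin gene, listed as Aspnl1 in the table and the third of the class, had 4.36 and 3.92 CPM in transgenic corneas and 4.62, 2.59 and 2.82 CPM in wild-type corneas.

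The class II genes did not share a pattern. Fmod encodes fibromodulin, a collagen-binding proteoglycan abundant in tendon and sclera, and had 438 and 498 CPM in transgenic corneas, against 352, 296 and 328 CPM in wild-type corneas. Its groups did not overlap, and the log2 fold change was 0.52 ± 0.11 (unadjusted p = 9.11e-04 and adjusted p = 0.404 by edgeR). Prelp, whose product links collagen to heparan sulfate of basement membranes, had 34.9 and 39.6 CPM in transgenic corneas and 28.2, 21.5 and 25.8 CPM in wild-type corneas. It had the same pattern at a lower level, with a log2 fold change of 0.56 ± 0.13 (unadjusted p = 0.00190 and adjusted p = 0.467 by edgeR).

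Kera encodes keratocan, a keratan sulfate proteoglycan used as a marker of keratocytes and mutated in a flattened human cornea, cornea plana. It had 198 and 203 CPM in transgenic corneas, against 144, 172 and 174 CPM in wild-type corneas. The transgenic values nearly coincided and stood above the wild-type ones, of which cornea 1 was the lowest. The log2 fold change was 0.29 ± 0.11 (unadjusted p = 0.0209 and adjusted p = 0.703 by edgeR). Over each library left out it ran from 0.22, without wild-type cornea 1, to 0.34, without wild-type cornea 3. Without wild-type cornea 1, Kera no longer had an unadjusted edgeR p under 0.05, whereas Bgn, Fmod and Prelp still did.

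Lum encodes lumican, the other main keratan sulfate proteoglycan of the stroma, whose loss in mice clouds the cornea. It had 287 and 189 CPM in transgenic corneas 1 and 2, against 223, 263 and 231 CPM in wild-type corneas. The 2 transgenic values were the highest and the lowest of all 5, and the wild-type range lay between them. The log2 fold change was therefore -0.01 ± 0.18 (edgeR adjusted p = 0.995), and it was 0.26 without transgenic cornea 2 and -0.33 without transgenic cornea 1. The ratio of Kera to Lum counts was 0.690 and 1.07 in transgenic corneas and 0.647, 0.653 and 0.750 in wild-type corneas, so transgenic cornea 2 stood apart and transgenic cornea 1 lay inside the wild-type range (exact permutation p = 0.4, adjusted over the 8 ratios 0.640).

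**Figure D2:**
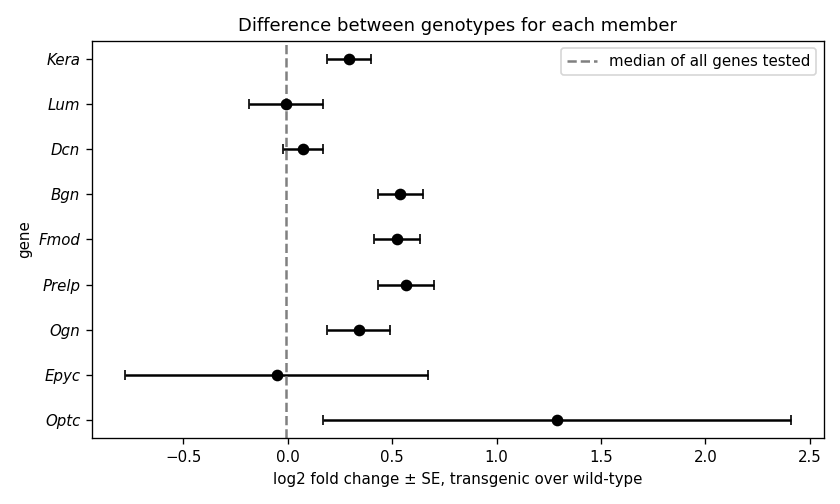
Log2 fold change, transgenic over wild-type, of each gene on the x axis with its standard error (bars) from the edgeR fit over all genes. Prelp, Bgn and Fmod lie between 0.52 and 0.56 with short bars, Lum and Dcn near the median of all genes (dashed), and Epyc and Optc have the widest bars.

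Of the class III genes, Optc and Epyc had the lowest levels and the widest spread of all the listed genes, whereas Ogn did not. Ogn encodes osteoglycin, also called mimecan, a keratan sulfate proteoglycan in the cornea. It had 33.8 and 43.5 CPM in transgenic corneas, against 35.6, 27.9 and 27.9 CPM in wild-type corneas. Wild-type cornea 1 lay above transgenic cornea 1, so the groups overlapped, and the log2 fold change was 0.34 ± 0.15 (unadjusted p = 0.0506 and adjusted p = 0.788 by edgeR). It was 0.15 without transgenic cornea 2 and 0.52 without transgenic cornea 1. The value rests on a named isoform row alone, and any part of Ogn held in isoform rows without a gene name is not counted.

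Optc encodes opticin, a protein that in the eye is made mainly by the ciliary epithelium and deposited in the vitreous. It had 140 and 129 counts, or 5.398 and 4.11 CPM, in transgenic corneas 1 and 2, against 130, 9 and 11 counts, or 4.69, 0.440 and 0.501 CPM, in wild-type corneas 1 to 3. Wild-type cornea 1 thus matched the transgenic corneas, and the other 2 wild-type corneas were far below. The log2 fold change was 1.29 ± 1.12 (edgeR adjusted p = 0.884). Leaving out wild-type cornea 1, the wild-type cornea that matched the transgenic ones, brought the log2 fold change to 3.33 (edgeR adjusted p = 0.0367). In that setting 6 genes passed the test. Markers of pigment cells, iris and ciliary body were higher in both transgenic corneas than in any wild-type cornea for 9 of 9 tested genes (12% of all genes), with a summed level of 372 and 642 CPM in transgenic corneas and 178 to 286 CPM in wild-type corneas. Most of that sum was Myoc, with 283 and 478 CPM in transgenic corneas and 236, 168 and 178 CPM in wild-type corneas. Among the wild-type corneas, cornea 1 was highest for Tyr, Tyrp1, Pmel, Mlana, Slc45a2 and Myoc, but not for Oca2, Trpm1 and Best2. Best2, a channel of the ciliary epithelium, was low throughout, with 1.195 and 0.987 CPM in transgenic corneas and 0.144, 0.147 and 0.0911 CPM in wild-type corneas. The part of such tissue in the Optc values was not tested.

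Epyc encodes epiphycan, a proteoglycan known from growth plate cartilage, and had few counts in every cornea. It had 13 and 34 counts in transgenic corneas and 46, 8 and 8 counts in wild-type corneas 1 to 3. Wild-type cornea 1 was the highest and the groups overlapped (log2 fold change -0.05 ± 0.73, edgeR adjusted p = 0.995). Without wild-type cornea 1 the log2 fold change was 1.08. Lens markers were also highest in wild-type cornea 1: the list summed to 16.0 and 9.20 CPM in transgenic corneas and 131, 30.4 and 23.4 CPM in wild-type corneas 1 to 3. All 6 tested lens genes had a log2 fold change below 0, and 5 of them were lower without overlap in transgenic corneas (10.7% of all genes). Their part in the Epyc values was not tested.

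**Figure D3:**
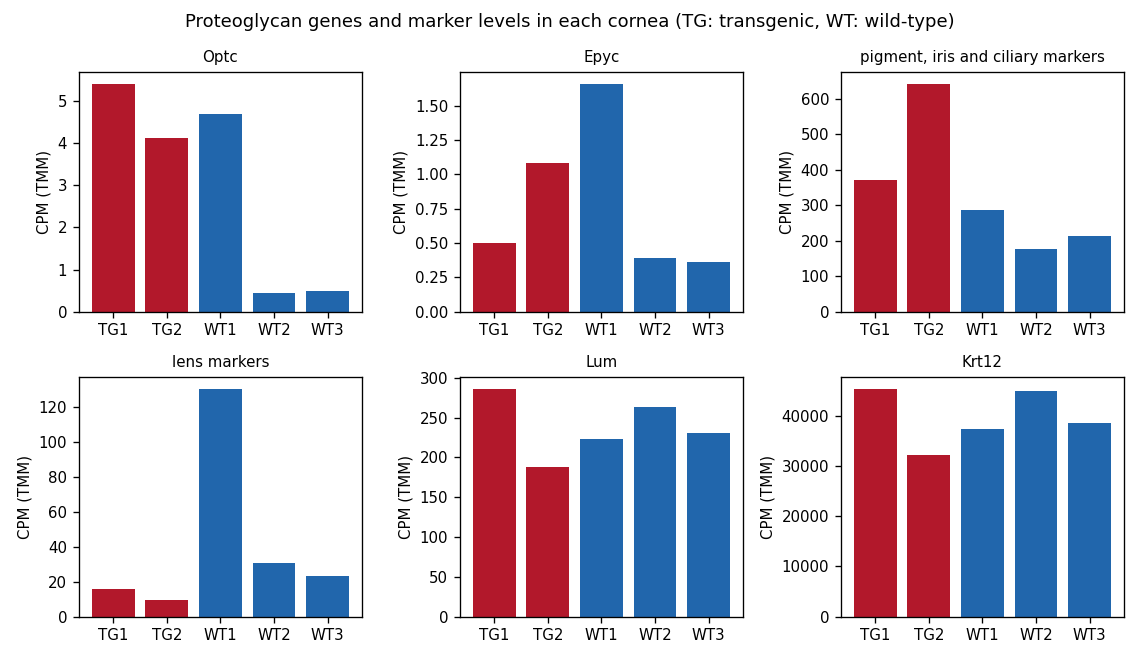
Optc, Epyc and Lum beside the summed pigment, iris and ciliary markers, the summed lens markers and Krt12 in each cornea, in CPM on the y axis (red: transgenic, blue: wild-type). Wild-type cornea 1 is high for Optc, Epyc and lens markers, and the bars of Lum follow those of Krt12. Most of the summed pigment, iris and ciliary level is Myoc.

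Across the 5 corneas the genes fell into different profiles. Likeness was measured as the root-mean-square (RMS) difference between genes in log2(CPM + 0.5), each centred on its own mean. Bgn and Fmod were the closest pair of the 36, at an RMS difference of 0.0233, followed by Fmod and Prelp at 0.0499 and Bgn and Prelp at 0.0574. The 3 genes had the same order of libraries, highest in transgenic cornea 2, then transgenic cornea 1, and lowest in wild-type cornea 2. Fmod and Prelp are neighbours in the genome, while Bgn lies on another chromosome. Fmod with Optc, the other gene of that neighbourhood, differed by 0.995.

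The trio kept nearly fixed proportions. The ratio of Bgn to Fmod counts was 1.01 and 1.01 in transgenic corneas and 0.973, 1.00 and 1.02 in wild-type corneas, so its highest value was 1.05 times its lowest. The ratio of Prelp to Fmod counts was 0.0798 and 0.0794 in transgenic corneas and 0.0800, 0.0725 and 0.0787 in wild-type corneas. Over the same libraries each of the 3 genes varied 1.68-fold (Fmod), 1.69-fold (Bgn) or 1.84-fold (Prelp) between its highest and lowest CPM. Dcn varied least, at 1.10-fold.

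The neighbours Dcn, Lum and Kera were less alike than the trio. Kera and Dcn differed by an RMS of 0.145, Lum and Dcn by 0.180 and Kera and Lum by 0.271. Of the 3, Dcn stayed between -0.06 and 0.09 of its mean on the log2 scale in all 5 corneas. Lum deviated by 0.28 in transgenic cornea 1 and by -0.32 in transgenic cornea 2, where Kera deviated by 0.16 and 0.20.

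**Figure D4:**
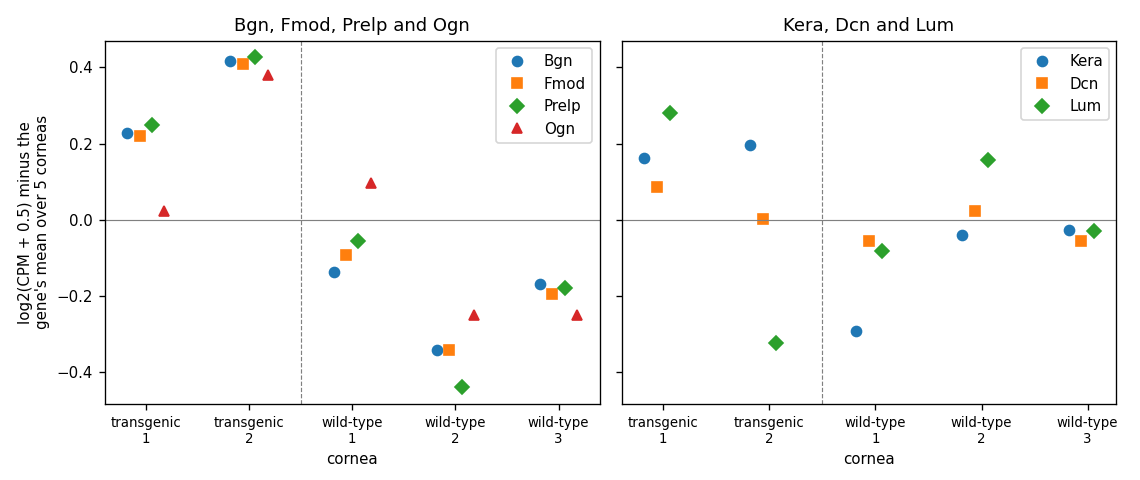
Log2(CPM + 0.5) of each gene minus its mean over the 5 corneas (y axis), for each cornea (x axis), with Bgn, Fmod, Prelp and Ogn on the left and Kera, Dcn and Lum on the right. The points of Bgn, Fmod and Prelp nearly coincide in each cornea, whereas Lum and Kera part in transgenic cornea 2.

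Outside the family, the genes closest to Lum over the 5 corneas included Krt12, the keratin specific to corneal epithelium. Among 8758 other genes with a mean of at least 10 CPM, the 3 nearest to Lum were Cited4, a transcriptional coactivator, at an RMS difference of 0.0368, Krt12 at 0.0396 and Prkar2b, a regulatory subunit of protein kinase A, at 0.0454 (median over all 8758 genes 0.227). Krt12 had 45504 and 32245 CPM in transgenic corneas and 37487, 45092 and 38583 CPM in wild-type corneas. Per 1000 CPM of Krt12, Lum had 6.30 and 5.85 CPM in transgenic corneas and 5.95, 5.84 and 5.997 CPM in wild-type corneas, a 1.08-fold range, while Lum itself ranged 1.52-fold. The 3 genes nearest to Kera were Ikbip (0.0286), the glycolytic enzyme gene Pfkp (0.0309) and the carbonic anhydrase gene Ca14 (0.0313), and the gene nearest to Bgn was Fmod (0.0233). Such nearness over 5 libraries is a description, since many genes were searched.

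Within the family, the shares of 4 of the 9 genes in the summed counts did not overlap between groups, and those of the other 5 did. In CPM, the groups did not overlap in 12% of all genes with transgenic corneas higher and in 10.7% with transgenic corneas lower. Shares were not formed for genes outside the family. Dcn made up 29.96% and 28.1% of the family's counts in transgenic corneas, against 33.0%, 35.3% and 33.2% in wild-type corneas. Bgn made up 21.5% and 24.4% in transgenic corneas, against 20.3%, 17.8% and 19.9% in wild-type corneas. Fmod made up 21.3% and 24.2%, against 20.8%, 17.8% and 19.5%. The shares of Bgn, Fmod and Prelp were higher, and that of Dcn lower, in both transgenic corneas than in all wild-type corneas. Shares are parts of a whole, so these differences are not independent of each other. In CPM, the groups of Dcn overlapped, with a log2 fold change of 0.07. With members summed from named isoform rows, the share of Bgn overlapped between groups. Kera held 9.63% and 9.83% of the family in transgenic corneas and 8.54%, 10.3% and 10.3% in wild-type corneas, so its groups overlapped. The exact permutation p was 0.2 for Dcn, Bgn, Fmod and Prelp, the smallest the design allows, and 0.45 after adjustment over the 9 shares.

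The isoform table gave the same picture for the rows that carry a member's name. Of 9 such isoform rows tested, 0 passed the edgeR test among 27110 isoforms, where 0% passed. At an unadjusted p under 0.05, 4 did (Bgn, Fmod, Prelp and Kera), against 3.98% of all isoforms. For Kera, Fmod, Prelp, Epyc and Optc the named rows held 100% of the gene's counts. For Bgn the named row held only 34.2% and 38.7% in transgenic corneas and 38.0%, 32.8% and 33.1% in wild-type corneas. It had 143 and 185 CPM in transgenic corneas and 123, 91.7 and 105 CPM in wild-type corneas (log2 fold change 0.62 ± 0.17, adjusted p = 1.000 by edgeR). For Lum the named row held 92.1% and 94.7% in transgenic corneas and 93.1% to 93.8% in wild-type corneas. The rest of the Lum counts equalled the values of 1 isoform row without a gene name in all 5 libraries, within 0.03 counts. By the same measure the rest of the Bgn counts equalled no such row and no pair of such rows, so its source was not found.

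Genes that build, bind or cut these proteoglycans were read from 7 lists. Of 95 listed genes 84 were tested, and 0 passed the edgeR test. At an unadjusted p under 0.05, 11 of the 84 were higher and 1 was lower in transgenic corneas, against 4.39% and 1.93% of all genes. DESeq2 called 1 (Col5a1, higher), against 0.256% of all genes higher, and limma voom 0. The groups did not overlap in 24 of the 84 with transgenic corneas higher and in 5 with transgenic corneas lower, against 12% and 10.7% of all genes.

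Among the collagen partners, 10 of 11 tested genes had a log2 fold change above 0 (48.2% of all genes), with a median of 0.27, and 4 were higher at an unadjusted p under 0.05 (4.39% of all genes). Col5a1, a minor fibrillar collagen that limits fibril width, had 92.7 and 97.0 CPM in transgenic corneas and 65.5, 67.8 and 67.8 CPM in wild-type corneas (log2 fold change 0.50 ± 0.09, edgeR adjusted p = 0.381). Col12a1, a collagen on fibril surfaces, had a log2 fold change of 0.44 ± 0.12 and Col11a1, a fibrillar collagen of cartilage, 0.92 ± 0.25. The 11 genes summed to 2703 and 2959 CPM in transgenic corneas and 2178, 2275 and 2258 CPM in wild-type corneas. The ratio of the family's summed CPM to this sum was 0.759 and 0.697 in transgenic corneas and 0.776, 0.733 and 0.744 in wild-type corneas, and its groups overlapped.

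The enzymes of the sugar chains differed less as lists. For chondroitin and dermatan sulfate, the chains of biglycan and decorin, 15 of 20 tested genes had a log2 fold change above 0, with a median of 0.14. Of the 20, 2 were higher and 0 lower at an unadjusted edgeR p under 0.05 (4.39% and 1.93% of all genes). The dermatan sulfate epimerase genes Dsel and Dse had the smallest p-values of that list. Dsel had 6.05 and 9.14 CPM in transgenic corneas and 4.19, 4.26 and 4.01 CPM in wild-type corneas (log2 fold change 0.87 ± 0.23, edgeR adjusted p = 0.493). Dse had 10.5 and 10.3 CPM in transgenic corneas and 7.94, 6.56 and 7.79 CPM in wild-type corneas (0.48 ± 0.17, adjusted p = 0.695). Chpf2, a chondroitin polymerizing factor, had a log2 fold change of 0.24 ± 0.13.

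For keratan sulfate, the chain of keratocan and lumican, 6 of 10 tested genes had a log2 fold change above 0 and 4 below, with a median of 0.15 and 0 at an unadjusted p under 0.05. The sulfotransferase gene Chst2 had 9.56 and 9.90 CPM in transgenic corneas and 5.67, 6.51 and 9.02 CPM in wild-type corneas. The sialyltransferase genes St3gal2 and St3gal1 had log2 fold changes of 0.31 ± 0.15 and -0.23 ± 0.13. Among genes of sulfate and sugar donors, 7 of 9 lay above 0 with a median of 0.10 and 0 at an unadjusted p under 0.05. Log2 fold changes there were 0.14 ± 0.13 for the nucleotide sugar transporter gene Slc35d1, -0.12 ± 0.12 for the sulfate donor transporter gene Slc35b2 and 0.11 ± 0.11 for Sumf1, which activates sulfatases.

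Few other members of the family were tested. Of 5 tested relatives 4 had a log2 fold change above 0, with a median of 0.51 and 0 at an unadjusted p under 0.05. Chad, the gene of chondroadherin of cartilage and tendon, had 48.0 and 71.2 CPM in transgenic corneas and 45.9, 23.1 and 26.6 CPM in wild-type corneas (0.90 ± 0.37). Podnl1 had a log2 fold change of 0.65 ± 0.48 and asporin 0.30 ± 0.30.

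Among proteases and their helpers, 8 of 11 tested genes lay above 0 with a median of 0.09. Of the 11, 2 were higher and 0 lower at an unadjusted edgeR p under 0.05 (4.39% and 1.93% of all genes). Pcolce, which enhances procollagen processing, had 62.0 and 73.0 CPM in transgenic corneas and 55.2, 51.3 and 50.4 CPM in wild-type corneas (0.37 ± 0.10, edgeR adjusted p = 0.514). Log2 fold changes were 0.59 ± 0.21 for the gelatinase gene Mmp2 and -0.71 ± 0.35 for Mmp3. Among receptors and ligands that bind these proteoglycans, 12 of 18 lay above 0 with a median of 0.07. By the same measure 3 of the 18 were higher (Kdr, Lrp1 and Tgfb3) and 1 was lower (Tlr2, log2 fold change -0.44 ± 0.19). Tgfb3, a growth factor bound by decorin and biglycan, had 33.6 and 43.8 CPM in transgenic corneas and 31.0, 16.8 and 19.99 CPM in wild-type corneas (0.77 ± 0.28, edgeR adjusted p = 0.749). The log2 fold changes of the receptor genes Kdr and Lrp1 were 0.64 ± 0.18 and 0.41 ± 0.12.

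**Figure D5:**
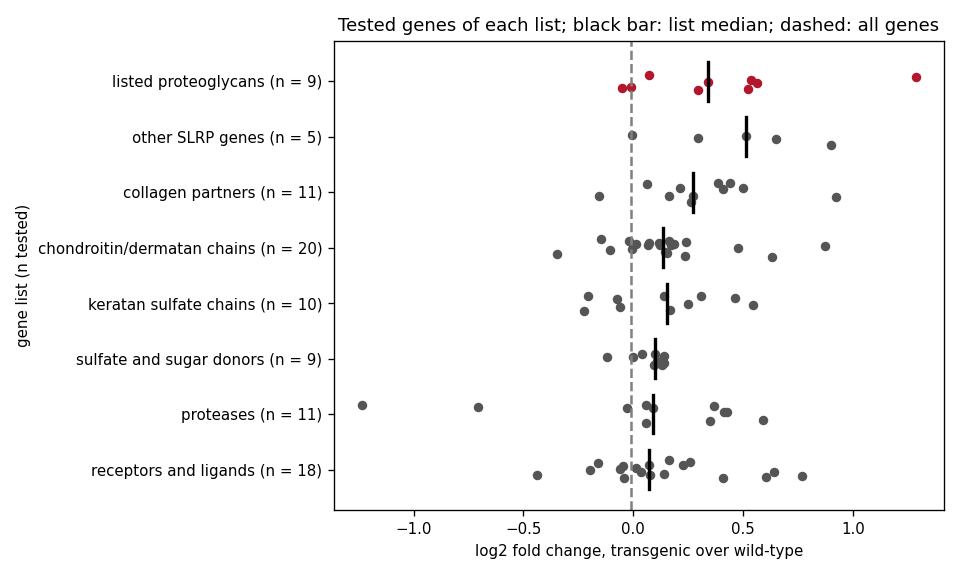
Log2 fold change, transgenic over wild-type, of every tested gene of the proteoglycans (red) and of 7 partner lists (grey), with the list median as a black bar and the median of all genes dashed. The medians run from 0.07 for receptors and ligands to 0.51 for the other family members.

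Several marker lists were also higher in transgenic corneas, with no tested marker past the edgeR test. DESeq2 called 2 of 9 tested pigment, iris and ciliary markers and 1 of 6 tested lens markers, against 0.256% of all genes higher and 0.135% lower. Of all genes tested, 48.2% had a log2 fold change above 0. The summed pigment, iris and ciliary markers ordered the 5 libraries as Bgn, Fmod and Prelp did: 372 and 642 CPM in transgenic corneas 1 and 2, against 286, 178 and 214 CPM in wild-type corneas 1 to 3. Most of this sum was a single gene, Myoc, with 283 and 478 CPM in transgenic corneas and 236, 168 and 178 CPM in wild-type corneas. The log2 fold change of Myoc was 0.97, below the list median of 2.05. Markers of sclera, tendon and cartilage, tissues that also express Fmod, Prelp and Chad, had 7 of 8 tested genes above 0, with a summed level of 143 and 169 CPM in transgenic corneas and 97.2 to 123 CPM in wild-type corneas. Keratocyte markers outside the family were split, with 4 of 6 above 0. They summed to 192 and 261 CPM in transgenic corneas and 122 to 180 CPM in wild-type corneas. The largest part of that sum was Angptl7, at 108 and 159 CPM in transgenic corneas and 43.6, 82.5 and 113 CPM in wild-type corneas. The groups of Angptl7 overlapped. Singly, 2 of the 6 were higher without overlap in transgenic corneas and 1 was lower, against 12% and 10.7% of all genes. Corneal endothelial markers had 4 of 5 above 0 and summed to 1096 and 1101 CPM in transgenic corneas and 933 to 1001 CPM in wild-type corneas. Skeletal muscle markers had 1 of 2 tested above 0 and summed to 14.2 and 16.7 CPM in transgenic corneas and 9.43 to 20.5 CPM in wild-type corneas. Across all marker lists, Zp4 was the only gene at 0 in all 5 libraries. The part of these tissues in the levels of Bgn, Fmod and Prelp was not tested.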

How the data were processed

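Corneal RNA was sequenced from 2 transgenic and 3 wild-type rats, grouped by sample title. The authors deposited 1 table of expected counts for genes and 1 for isoforms, whose column totals differ, so the values are not normalized. The submitters' processing notes name RSEM 1.2.28 and STAR 2.5.3a with the rat build rn6, and list FastQC, fastp, edgeR 3.28.0 and DESeq2 1.26.0 as well, without saying what each did. No source used here says whether libraries kept strand. Expected counts divide a read among the transcripts it fits, so single isoforms are less certain than genes.

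Counts were rounded, an Ogn row was added from the isoform table, genes were filtered by filterByExpr (minimum count 10), scaled by TMM and tested with the robust two-sided quasi-likelihood test of edgeR 4.0.16 (R 4.3.3), with Benjamini-Hochberg adjustment over 13305 genes or 27110 isoforms and a threshold of 0.05. The procedure was tested on simulated data. DESeq2 1.42.0 and limma 3.58.1 (voom) were alternatives, with other scaling, filter, block, table and left-out libraries. A standard error is the log2 fold change divided by the square root of F. Named genes were the members, the receptor genes, the 3 of smallest p with a mean of at least 1 CPM in each partner list and the 3 nearest genes of Kera, Bgn and Lum, of which some are not reported here. The members and lists were chosen with earlier results of these data known. Sequences come from RefSeq (GRCr8), where 6 of 10 members had a promoter. Older symbols were matched through RefSeq synonyms.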

Additional observations from a re-analysis of the deposited data

How the results depend on the processing

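No setting brought the family's summed level below wild-type, with log2 differences of 0.27 to 0.31 over the other scalings, the summed isoform rows and each library left out. Genes past the threshold, 1 by edgeR with TMM, numbered 52 by DESeq2, 2 without the low-count filter, 2 with isoform sums and 2 to 37 with each library left out. DESeq2 called 2 members (Bgn and Fmod) and 1 partner gene. With each library left out, edgeR called 0 to 1 members (Optc, without wild-type cornea 1). Adjusted p-values of Bgn lay between 0.0752 and 1.000 over the edgeR and voom settings. Member shares without overlap numbered 4 to 7 with each library left out, where fewer libraries leave less room for overlap, and 3 with isoform sums, where the share of Bgn overlapped. Lum, near 0, turned to 0.0049 with upper quartile factors and to 0.07 and 0.26 without wild-type cornea 2 and transgenic cornea 2. Epyc turned to 0.18 by limma voom and to 0.40 and 1.08 without transgenic cornea 1 and wild-type cornea 1. Over each library left out, Lum ran from -0.33 to 0.26 and Epyc from -0.72 to 1.08. The cause was not tested. The replicate number added as a block gave 16 genes and 0 members. The labels do not say that numbers pair the corneas, and the correlations of deviations for the same number, across genes, were 5.5e-04 and -0.105. With 2 transgenic corneas, their deviations from the group mean mirror each other. Each value is therefore the reverse in sign of that for the other transgenic cornea with the same wild-type cornea, and the values cannot decide on pairing.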
